A study of Mus with 96 samples.

Results

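The data described here are the liver mRNA levels of 9 Krüppel-like factors, *Klf2*, *Klf3*, *Klf4*, *Klf6*, *Klf9*, *Klf11*, *Klf12*, *Klf13*, and *Klf15*, in mice with and without a hepatocyte clock on 2 diets over the day. The 9 genes were taken by name from a table of 55487 genes. All 9 were among the 15548 genes that reached a total of 100 counts in the 96 libraries together. Livers were collected from Hep-Bmal1KO mice, in which Cre under the albumin promoter removes the floxed stretch of *Bmal1* from hepatocytes while the other liver cells keep the gene, and from Hep-Bmal1WT littermates, which carry the same floxed alleles without Cre. All mice were C57BL/6J, 8 to 10 weeks old, kept under 12 hours of light and 12 hours of darkness with free access to food, and fed for 2 weeks either normal chow or cdHFD, a high-fat diet that lacks choline and induces metabolic dysfunction-associated steatohepatitis (MASH). The 4 combinations of genotype and diet hold 24 mice each, with 4 mice at each of ZT 2, 6, 10, 14, 18, and 22, where ZT counts the hours after lights on. Each of these 24 cells of genotype, diet, and ZT held 2 male and 2 female mice, except Hep-Bmal1WT on cdHFD at ZT14, with 3 males and 1 female.

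Krüppel-like factors (KLFs) are zinc finger transcription factors that bind GC-rich and CACCC-type elements in promoters through 3 fingers at the carboxyl end, and they differ in the amino-terminal part that recruits other proteins. KLF9, KLF11, and KLF13 bind the SIN3 corepressor, KLF3 and KLF12 bind the CtBP corepressors, KLF2, KLF4, and KLF6 carry acidic activation domains, and KLF15 stands apart from these groups. In the liver, KLF15 is known for driving amino acid breakdown and glucose output in fasting, KLF9 is known as a gene that glucocorticoids switch on, KLF6 is known for its induction by injury in hepatocytes and stellate cells, and KLF2 and KLF4 are known for keeping endothelium quiescent.

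The genes lie on GRCm38.p6 as follows. *Klf9* (ENSMUSG00000033863) spans chr19:23141226-23168129, *Klf11* (ENSMUSG00000020653) chr12:24651371-24662782, and *Klf13* (ENSMUSG00000052040) chr7:63886351-63938915. *Klf3* (ENSMUSG00000029178) spans chr5:64803521-64832901 and *Klf12* (ENSMUSG00000072294) chr14:99866181-100285891. *Klf2* (ENSMUSG00000055148) spans chr8:72319062-72321654, *Klf4* (ENSMUSG00000003032) chr4:55527137-55532475, *Klf6* (ENSMUSG00000000078) chr13:5861489-5870393, and *Klf15* (ENSMUSG00000030087) chr6:90461043-90491803. RefSeq places other genes within the spans of *Klf3* (*Gm38457* and *Gm31684*), *Klf9* (*Mir1192*), *Klf12* (*Gm16260* and *Gm41231*), and *Klf13* (*Gm27252* and *E030018B13Rik*), and reads shared with these could not be separated.

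The libraries held from 1861740 to 9718615 reads on genes. The median count per library was 889.5 for *Klf15*, 411.5 for *Klf9*, 242 for *Klf13*, 180.5 for *Klf3*, 165.5 for *Klf6*, 128.5 for *Klf2*, 49 for *Klf11*, 31.5 for *Klf12*, and 15.5 for *Klf4*, so that the counting error, relative to the level, is largest for the last 3. In 7 libraries, both a set of 10 clock genes and a set of 20 other genotype-responsive genes lay nearer to the opposite genotype label at the same diet and ZT. These were 2 of Hep-Bmal1WT on chow, 2 of Hep-Bmal1WT on cdHFD, 2 of Hep-Bmal1KO on chow, and 1 of Hep-Bmal1KO on cdHFD. They are called discordant libraries below, stayed in every main comparison under their labels, and were left out only as an alternative. Because they were found by genes that respond to genotype, leaving them out can by its construction widen a genotype difference. If any of them carries a wrong label, keeping it narrows a genotype difference, and whether the labels are wrong was not tested. In 1 further library the sex-linked genes went against the labelled sex. The mean level of *Bmal1* (*Arntl*) at each ZT ranged from 0.748 to 20.2 CPM (the reads of a gene relative to the TMM-adjusted read total of its library) in Hep-Bmal1WT and from 5.74 to 9.83 CPM in Hep-Bmal1KO on chow, and its daily curve differed between genotypes (edgeR quasi-likelihood test, adjusted p = 0.0105 on chow and 0.0143 on cdHFD). The 3′ reads need not lie in the deleted stretch, so the *Arntl* level is no check of the deletion.

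The first question was which KLF transcripts cycle over the day in a liver with an intact clock. In Hep-Bmal1WT on chow, 5 of the 9 genes were rhythmic (adjusted p under 0.05 in an edgeR test of a 24-hour cosine and sine), where 18.7% of all genes tested were rhythmic. These were *Klf15*, all 3 genes of the SIN3 group (*Klf9*, *Klf11*, and *Klf13*), and *Klf3*. In contrast, 1 of 9 was rhythmic in Hep-Bmal1KO on chow (4.34% of all genes), 1 of 9 in Hep-Bmal1WT on cdHFD (14.3%), and none in Hep-Bmal1KO on cdHFD (3.81%, with 1 of 9 at an unadjusted p under 0.05), and the gene was *Klf13* in both cases. Without the discordant libraries the counts were 6, 1, 1, and 0, with *Klf6* added in Hep-Bmal1WT on chow (adjusted p = 0.0366). Leaving out the mouse numbered 1, 2, or 4 in every cell ended the *Klf13* call in Hep-Bmal1KO on chow, and leaving out mouse 2, 3, or 4 ended it in Hep-Bmal1WT on cdHFD. In most cells mice 1 and 2 were male and mice 3 and 4 female, so leaving out a number also changed the balance of the sexes.

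**Figure D1:**
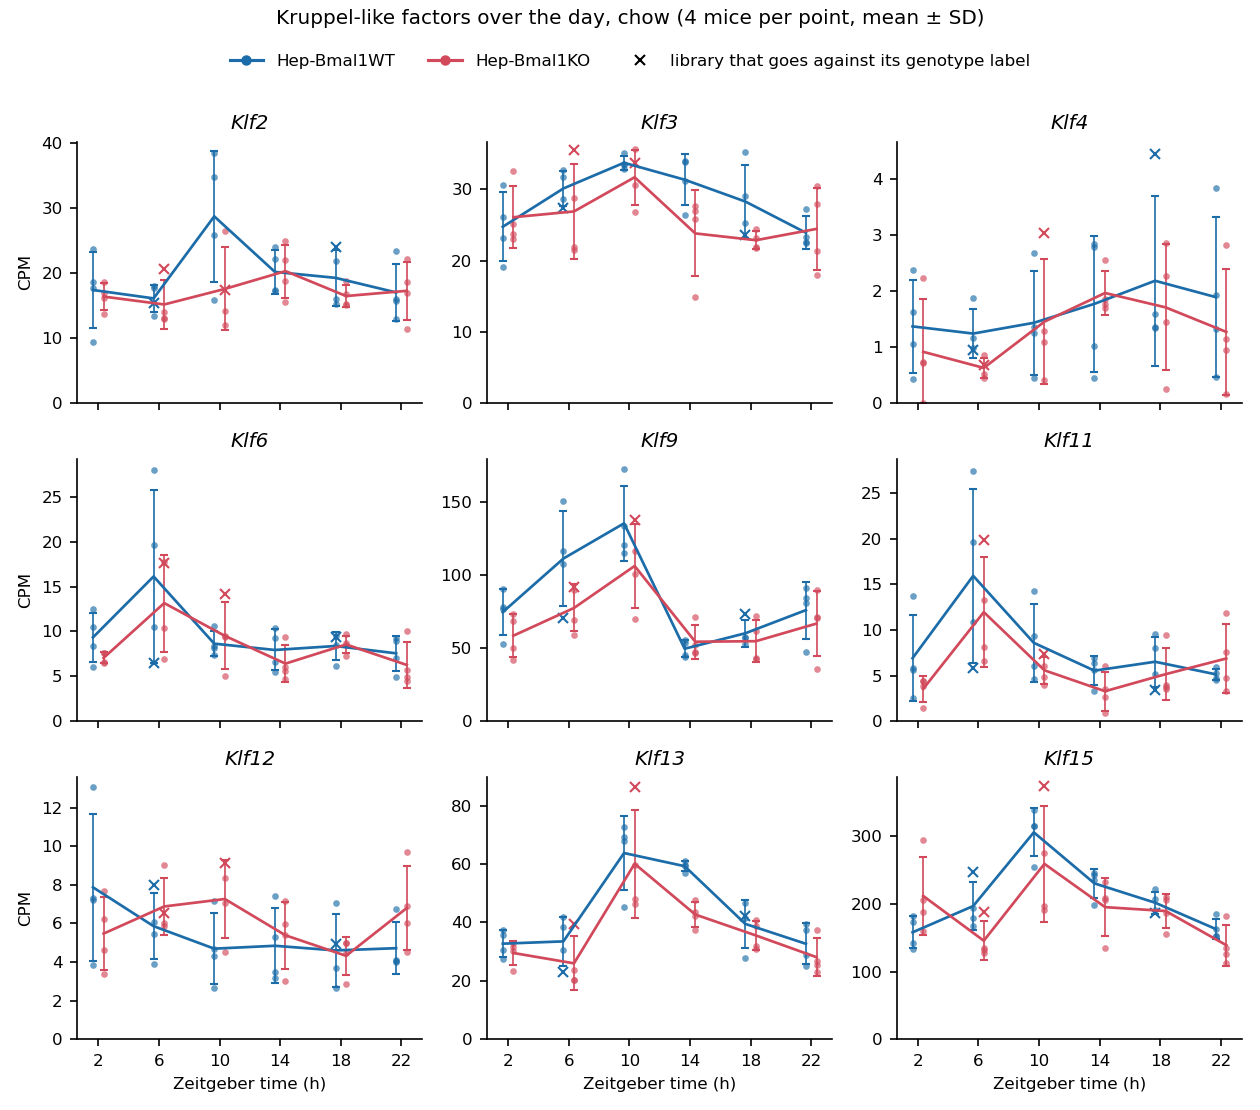
Level (CPM, TMM-scaled) of the 9 KLF genes by ZT on chow, with 1 point per mouse, lines and bars for the mean ± SD of 4 mice in each genotype, and crosses for discordant libraries. In Hep-Bmal1WT, *Klf15* reached 255 to 338 CPM at ZT10 and 134 to 182 CPM at ZT2.

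*Klf15* had the rhythm with the smallest p among the 9 genes in Hep-Bmal1WT on chow. The 4 livers at ZT2 had 134, 143, 173, and 182 CPM, and those at ZT10 had 255, 315, 315, and 338 CPM. The sets at the ZTs before and after did not reach the ZT10 values, with 167, 179, 194, and 248 CPM at ZT6 and 198, 235, 242, and 246 CPM at ZT14. The fitted amplitude, the distance from the mean to the peak on the log2 scale of variance-stabilized values, was 0.42 ± 0.06 (SE, n = 24), and the fitted peak fell at 11.6 ± 0.57 h after lights on (adjusted p = 0.000139).

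*Klf13*, a SIN3-binding repressor known from T cells as an activator of chemokine expression, had its highest levels around the end of the light phase. Its values were 45.2, 67.9, 69.2, and 72.8 CPM at ZT10 and 57.03, 59.3, 59.5, and 61.2 CPM at ZT14, against 24.95, 28.7, 37.4, and 39.6 CPM at ZT22. The ZT22 values all lay below the ZT10 and ZT14 values. The amplitude was 0.50 ± 0.09 and the peak 12.5 ± 0.68 h (adjusted p = 0.000256).

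The fitted peak of *Klf9*, a repressor that glucocorticoids induce, stood in the light phase at 6.63 ± 0.95 h, with an amplitude of 0.51 ± 0.13 (adjusted p = 0.00508). Its highest mean stood at ZT10, with 115, 121, 134, and 173 CPM, and was followed at ZT14 by the set with the lowest mean, 44.3, 45.3, 53.7, and 55.4 CPM. *Klf9* thus fell within a single sampling step from its highest to its lowest mean, which a cosine cannot follow. At ZT6 the 4 livers had 70.9, 108, 117, and 151 CPM, the lowest of them a discordant library.

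*Klf3* and *Klf11* had the largest adjusted p of the 5 rhythmic genes in the edgeR test. Other tests ranked them otherwise. In a cosinor test the unadjusted p was 0.000206 for *Klf3*, 0.00251 for *Klf9*, and 0.0564 for *Klf11*. With JTK_CYCLE it was 0.000346, 0.0312, and 0.385. *Klf3*, a CtBP-binding repressor, had a tight set of values at ZT10 (32.8, 33.4, 33.5, and 35.1 CPM) and lower ones at ZT22 (22.5, 22.6, 23.2, and 27.3 CPM), with an amplitude of 0.23 ± 0.04, a peak at 11.1 ± 0.75 h, and an adjusted p of 0.0130. *Klf11*, which binds SIN3A and is also known as a regulator of insulin transcription, had 5.81, 10.9, 19.6, and 27.3 CPM at ZT6 and 4.57, 4.73, 5.31, and 5.93 CPM at ZT22. Its amplitude was 0.41 ± 0.16 and its adjusted p 0.0348, and the call rested on a few high livers at ZT6. The ZT6 livers at 19.6 and 27.3 CPM were the 2 females, as no male of this group exceeded 14.2 CPM. At ZT6 in Hep-Bmal1KO on chow, the livers at 13.2 and 19.9 CPM were also the females (highest male 8.14 CPM). Leaving out mouse 3 or mouse 4 of every cell ended the calls of *Klf11* and *Klf3*, leaving out mouse 2 ended that of *Klf3*, and leaving out mouse 3 also ended that of *Klf9*. The 4 remaining genes did not pass the test in Hep-Bmal1WT on chow, with an adjusted p of 0.0918 for *Klf6*, 0.150 for *Klf2*, 0.335 for *Klf12*, and 0.432 for *Klf4*.

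The second question was what the rhythms of these genes looked like without hepatocyte *Bmal1*. On chow, *Klf13* kept an amplitude of 0.44 ± 0.11 in Hep-Bmal1KO, against 0.50 ± 0.09 in Hep-Bmal1WT, and a peak at 12.6 ± 0.91 h (adjusted p for rhythm = 0.0175). The peak times of the genotypes differed by 0.11 ± 1.13 h (adjusted p = 0.964 over the genes rhythmic in both, of which 0.655% were called). In Hep-Bmal1KO the ZT10 livers had 46.4, 48.05, 59.7, and 86.3 CPM of *Klf13*, the highest of them a discordant library, and the ZT6 livers had 20.1, 20.3, 23.8, and 39.6 CPM, again with the highest in a discordant library.

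*Klf15* and *Klf9* passed the rhythm test in Hep-Bmal1WT and not in Hep-Bmal1KO, but the difference between genotypes did not pass a test of its own. The amplitude of *Klf15* was 0.42 in Hep-Bmal1WT and 0.23 ± 0.12 in Hep-Bmal1KO, a difference of -0.19 ± 0.13 (unadjusted p = 0.163). In Hep-Bmal1KO the livers at ZT10, the set with the highest mean, had 191, 197, 275, and 374 CPM. Those at ZT22, the set with the lowest mean, had 112, 126, 135, and 183 CPM. These sets were picked by their means, so their lack of overlap is no test of a rhythm. The edgeR rhythm test gave an adjusted p of 0.386. ZT2 had the lowest mean in Hep-Bmal1WT. In Hep-Bmal1KO the ZT2 livers had 160, 187, 205, and 295 CPM, overlapping those at ZT10. The log2 fold change between genotypes at ZT2 was 0.42 ± 0.20 (edgeR test, unadjusted p = 0.0332, adjusted p = 0.349). Without the discordant libraries, which include the one at 374 CPM, the amplitudes were 0.42 and 0.15, with a difference of -0.26 ± 0.13 (unadjusted p = 0.0483, adjusted p = 0.867). For *Klf9* the amplitudes were 0.51 and 0.34 ± 0.12, with a difference of -0.17 ± 0.18 (unadjusted p = 0.348). They were 0.61 and 0.25 without the discordant libraries, with a difference of -0.36 ± 0.18 (unadjusted p = 0.0573, adjusted p = 0.884). Its ZT10 livers in Hep-Bmal1KO had 70.3, 101, 116, and 138 CPM, the highest a discordant library, and its ZT14 livers 46.5, 47.5, 52.2, and 71.6 CPM, a fall between the same ZTs as in Hep-Bmal1WT.

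No gene of the 9 had a different amplitude between genotypes on either diet (0.0193% of all genes were called on each diet), none had a different mesor, the fitted mean level (10% and 7.48% of all genes on chow and cdHFD, with 2 of 9 at an unadjusted p under 0.05 on each), and none had a different daily curve in the edgeR test of genotype with cosine and sine (0.386% of all genes on chow and 0.431% on cdHFD). At an unadjusted p under 0.05 the tests of amplitude and of the curve also gave 0 of 9 on each diet, and so did DESeq2's likelihood ratio test of the curve at an adjusted p under 0.05. The standard errors of the amplitude difference lay between 0.09 and 0.24 on chow and between 0.07 and 0.18 on cdHFD.

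**Figure D2:**
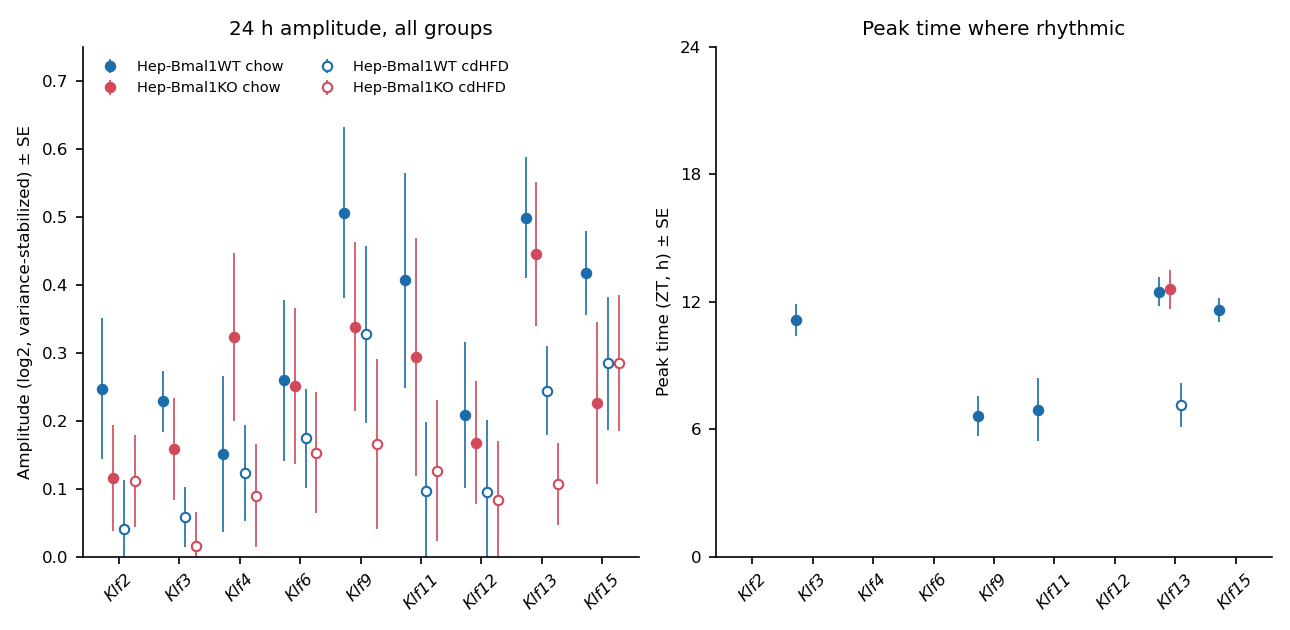
Fitted 24-hour amplitude (log2 scale of variance-stabilized values, ± SE) of the 9 genes in the 4 groups of 24 mice, and fitted peak time (hours after lights on, ± SE) where the gene was rhythmic. *Klf13* is the gene with a peak time in more than 1 group, at 12.5 h in Hep-Bmal1WT on chow, 12.6 h in Hep-Bmal1KO on chow, and 7.14 h in Hep-Bmal1WT on cdHFD.

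Averaged over the 6 ZTs, *Klf13* was lower in Hep-Bmal1KO on chow, the 1 gene of the 9 that passed the test, where 5.45% of all genes were lower and 7.08% higher. Its levels had a lowest value, median, and highest value of 23.1, 40.6, and 72.8 CPM in Hep-Bmal1WT and 20.1, 35.1, and 86.3 CPM in Hep-Bmal1KO, and the ranges overlapped. The log2 fold change was -0.24 ± 0.08 (SE), which is 0.847 times the Hep-Bmal1WT level with a 95% interval from 0.755 to 0.950 (adjusted p = 0.0453), and the mean was lower at 6 of 6 ZTs. The call was lost without a filter on low counts (adjusted p = 0.0642) and on leaving out mouse 1, 3, or 4 of every cell, with adjusted p between 0.0686 and 0.373. Without the discordant libraries the log2 fold change of *Klf13* was -0.33 (adjusted p = 0.00127).

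The estimates of the other genes on chow were mostly below 0 as well, in 8 of 9 genes with *Klf13*, and none of these others passed the test. The log2 fold change was -0.24 ± 0.10 for *Klf9* (adjusted p = 0.108) and -0.41 ± 0.20 for *Klf11* (adjusted p = 0.186), and *Klf11* reached -0.57 and an adjusted p of 0.0380 without the discordant libraries. *Klf12* was the exception in sign, with 0.17 ± 0.14. The median over the 9 genes was -0.19, beside -0.0096 over all genes tested. In the same comparison 2 of 5 cholangiocyte markers were higher in Hep-Bmal1KO (summed level 33.2, 51.1, and 144 CPM as lowest, median, and highest in Hep-Bmal1WT and 60.6, 89.8, and 144 CPM in Hep-Bmal1KO) and 2 of 8 hepatocyte markers were lower. Markers of stellate cells, macrophages, endothelial cells, and lymphocytes gave 0 calls out of 8, 8, 9, and 6. The part of these cells in the KLF values on chow was not tested.

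On cdHFD none of the 9 genes differed in level between genotypes (9.67% of all genes were called, 4.75% higher and 4.92% lower), and DESeq2's Wald test also called 0, with 2 of 9 at an unadjusted p under 0.05 in edgeR. These were *Klf4*, with a log2 fold change of 0.29 ± 0.12 (adjusted p = 0.139), and *Klf6*, with 0.18 ± 0.08 (adjusted p = 0.157). Leaving out mouse 4 of every cell gave *Klf6* a log2 fold change of 0.27 and an adjusted p of 0.0441. Both estimates were above 0, and 5 of 8 stellate cell markers rose in Hep-Bmal1KO on this diet (summed level 503, 667, and 1049 CPM as lowest, median, and highest in Hep-Bmal1WT and 503, 830, and 1562 CPM in Hep-Bmal1KO). Of 5 cholangiocyte markers, 3 rose as well (summed level 52.1, 104, and 215 CPM in Hep-Bmal1WT and 69.7, 225, and 750 CPM in Hep-Bmal1KO). Of 8 hepatocyte markers, 2 were lower in Hep-Bmal1KO, and of 8 macrophage markers 1 was higher and 1 lower. Markers of endothelial cells and lymphocytes gave 0 calls out of 9 and 6. The part of all these cells in the *Klf4* and *Klf6* values was not tested.

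At single ZTs, none of the 54 pairs of gene and ZT passed the edgeR test on chow, and none of 54 on cdHFD. Of all genes, 0.888%, 0.00643%, 2.67%, 4.79%, 0.617%, and 1.19% were called at ZT 2, 6, 10, 14, 18, and 22 on chow, and 0.354%, 0.277%, 0.00643%, 0%, 0.0579%, and 0.0129% on cdHFD. At an unadjusted p under 0.05 there were 5 pairs on chow and 1 on cdHFD. The pair nearest the threshold was *Klf2* on chow at ZT10, with 15.97, 25.8, 34.8, and 38.5 CPM in Hep-Bmal1WT and 12.1, 14.2, 17.5, and 26.6 CPM in Hep-Bmal1KO (log2 fold change -0.70 ± 0.22, adjusted p = 0.0712). These values overlapped, and the pair passed with sex as a covariate. *Klf13* at ZT14 on chow did not overlap, with 57.03 to 61.2 CPM in Hep-Bmal1WT and 37.3, 42.3, 43.4, and 47.8 CPM in Hep-Bmal1KO (log2 fold change -0.48 ± 0.19, adjusted p = 0.143). At that ZT 9.85% of all genes did not overlap. The low-count genes *Klf4* at ZT6 on chow (0.943, 0.988, 1.17, and 1.88 against 0.452, 0.522, 0.691, and 0.861 CPM, where 4.49% of all genes did not overlap) and *Klf12* at ZT14 on cdHFD (2.51, 2.59, 2.65, and 2.79 against 2.92, 4.33, 5.43, and 5.56 CPM, where 2.45% did not) were the other 2 pairs without overlap, and each of these sets of 4 holds a discordant library. Without the discordant libraries *Klf13* on chow at ZT6 passed (adjusted p = 0.0174).

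The third question was how the KLF levels differed between cdHFD and chow. In Hep-Bmal1WT, *Klf6*, *Klf4*, and *Klf2* rose on cdHFD and *Klf15*, *Klf9*, and *Klf12* fell, where 28.4% of all genes rose and 27.3% fell. In Hep-Bmal1KO, *Klf6*, *Klf4*, *Klf2*, and *Klf11* rose and *Klf15* and *Klf12* fell, where 32.4% of all genes rose and 29.6% fell. The shares called, 6 of 9 in each genotype, lay close to those of all genes (55.7% and 62%). The median log2 fold change was 0.03 over the 9 genes and 0.0084 over all genes in Hep-Bmal1WT, and 0.15 and 0.023 in Hep-Bmal1KO.

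**Figure D3:**
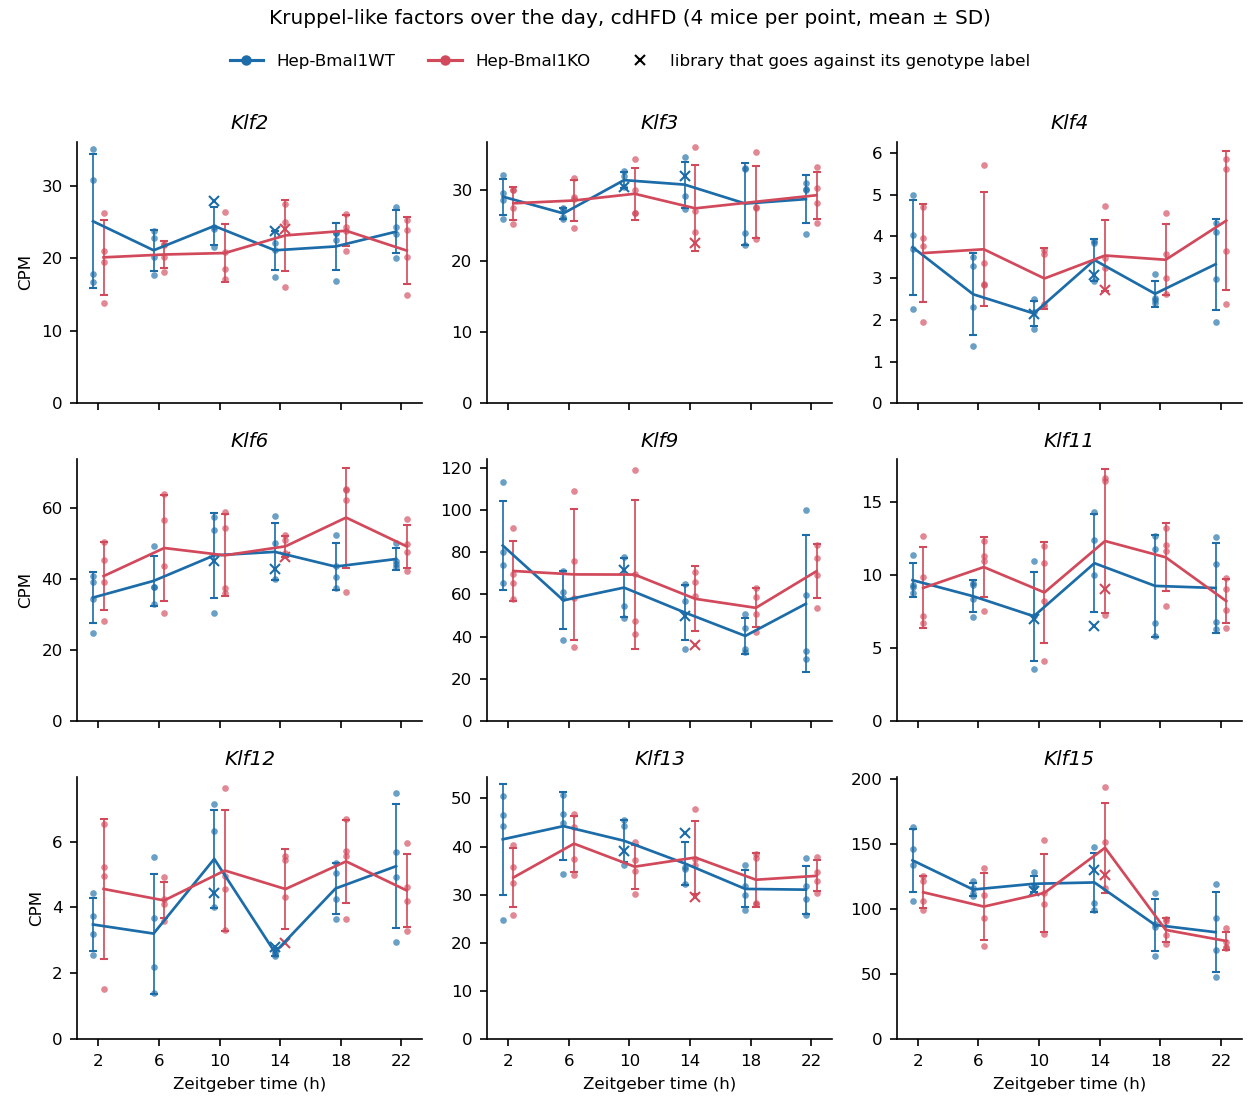
Level (CPM, TMM-scaled) of the 9 KLF genes by ZT on cdHFD, with 1 point per mouse, lines and bars for the mean ± SD of 4 mice in each genotype, and crosses for discordant libraries. *Klf6* lay between 24.8 and 65.5 CPM in all 48 livers.

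The activator group was higher on cdHFD in both genotypes, and *Klf6* had the largest fold change of the 9 genes. In Hep-Bmal1WT, *Klf6* had a lowest value, median, and highest value of 4.98, 8.71, and 27.97 CPM on chow and 24.8, 43.2, and 57.9 CPM on cdHFD. A single chow liver, at ZT6, exceeded the lowest cdHFD liver, and within each of the 6 ZTs the diets did not overlap. The share of all genes without such overlap at single ZTs was not computed between diets. Over all 24 livers per diet, 2.2% of all genes were higher on cdHFD without overlap. The log2 fold change was 2.19 ± 0.13, a 4.55-fold rise with a 95% interval from 3.82 to 5.42 (adjusted p = 7.34e-21). In Hep-Bmal1KO the values were 4.45, 7.58, and 17.8 CPM on chow and 28.3, 48.8, and 65.5 CPM on cdHFD, so that all 24 cdHFD livers lay above all 24 chow livers, as was the case for 3.19% of all genes. The rise there was 5.85-fold (95% interval 4.95 to 6.92, log2 fold change 2.55 ± 0.12, adjusted p = 3.03e-24).

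*Klf4* rose 1.79-fold in Hep-Bmal1WT (95% interval 1.37 to 2.35, adjusted p = 0.000227), from 0.428, 1.35, and 4.44 CPM (lowest, median, and highest) to 1.37, 2.95, and 4.995 CPM. In Hep-Bmal1KO it rose 2.76-fold (2.04 to 3.74, adjusted p = 7.30e-08), from 0, 1.12, and 3.04 CPM to 1.95, 3.52, and 5.86 CPM. The 1 library at 0, a Hep-Bmal1KO liver on chow at ZT2, allows a level of up to 0.601 CPM (3 counts). The diets overlapped in both genotypes. *Klf2* moved less, with a log2 fold change of 0.22 ± 0.10 in Hep-Bmal1WT (medians 17.7 and 23.1 CPM, adjusted p = 0.0475) and 0.32 ± 0.08 in Hep-Bmal1KO (medians 16.9 and 21.5 CPM, adjusted p = 0.000699). The call of *Klf2* in Hep-Bmal1WT was lost without the discordant libraries (adjusted p = 0.0569), without a filter on low counts (0.0618), and on leaving out mouse 1, 2, or 3 of every cell.

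*Klf15* was the gene with the largest fall. In Hep-Bmal1WT its lowest value, median, and highest value were 134, 193, and 338 CPM on chow and 47.8, 114, and 163 CPM on cdHFD, and the diets did not overlap at 5 of 6 ZTs. Between diets, the share of all genes without overlap at single ZTs was not computed. The level on cdHFD was 0.532 times that on chow (95% interval 0.471 to 0.601, log2 fold change -0.91 ± 0.09, adjusted p = 6.16e-13). In Hep-Bmal1KO the values were 112, 188, and 374 CPM on chow and 70.01, 102, and 194 CPM on cdHFD, without overlap at 4 of 6 ZTs, and the level on cdHFD was 0.556 times that on chow (0.489 to 0.632, adjusted p = 2.61e-11).

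**Figure D4:**
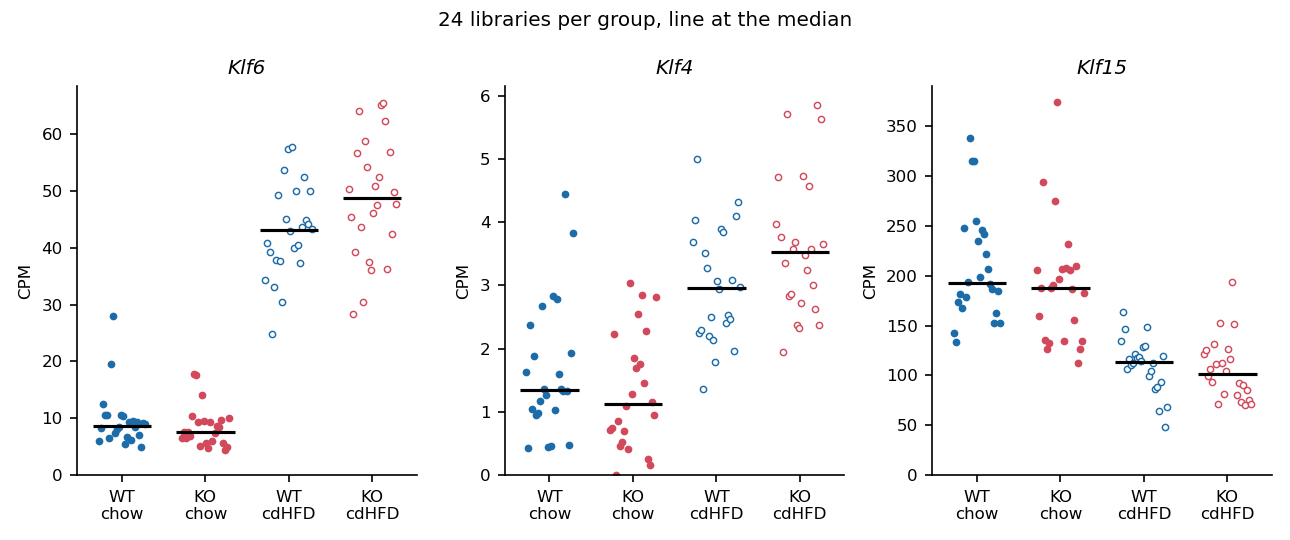
Level (CPM, TMM-scaled) of *Klf6*, *Klf4*, and *Klf15* in each of the 24 livers per group, with a line at the median. *Klf6* medians were 8.71 and 7.58 CPM on chow and 43.2 and 48.8 CPM on cdHFD, and *Klf15* medians were 193 and 188 CPM on chow and 114 and 102 CPM on cdHFD, in Hep-Bmal1WT and Hep-Bmal1KO, respectively.

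The SIN3 group did not move as one. *Klf9* fell in Hep-Bmal1WT, from 44.3, 77.6, and 173 CPM to 29.7, 57.5, and 113 CPM (lowest, median, and highest, log2 fold change -0.49 ± 0.12, adjusted p = 0.000751), whereas its estimate in Hep-Bmal1KO was -0.06 ± 0.12 (adjusted p = 0.686) and 0.017 without the discordant libraries. *Klf11* rose in Hep-Bmal1KO, from 0.928, 4.58, and 19.9 CPM to 4.15, 9.86, and 16.6 CPM (log2 fold change 0.81 ± 0.18, adjusted p = 0.000131), with 0.27 ± 0.18 in Hep-Bmal1WT (adjusted p = 0.214). *Klf13* had log2 fold changes of -0.17 ± 0.10 and 0.01 ± 0.10, neither past the threshold, and the first reached -0.24 and an adjusted p of 0.0381 on leaving out mouse 2 of every cell. In the CtBP group, *Klf12* fell by 0.40 ± 0.16 in Hep-Bmal1WT (adjusted p = 0.0309) and by 0.33 ± 0.13 in Hep-Bmal1KO (adjusted p = 0.0242) on the log2 scale, and both calls were lost without the discordant libraries (adjusted p = 0.0800 and 0.0674), with DESeq2's size factors (0.0530 and 0.0550), and on leaving out any mouse number in Hep-Bmal1WT or mouse 2, 3, or 4 in Hep-Bmal1KO. *Klf3* had 0.03 ± 0.06 (adjusted p = 0.655) and 0.15 ± 0.07 (adjusted p = 0.0669), and in Hep-Bmal1KO it passed without the discordant libraries (0.0140), with DESeq2's size factors (0.0139), in DESeq2's Wald test (0.0189), and without mouse 4 of every cell (0.0299).

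Markers of other liver cells moved with the diet as well. The summed level of 8 hepatocyte markers had a median of 168078 CPM on chow and 93482 CPM on cdHFD in Hep-Bmal1WT and of 126550 and 79906 CPM in Hep-Bmal1KO. Of these 8 markers, 7 were lower and 1 was higher on cdHFD in each genotype. The sum of 8 macrophage markers ranged from 227 to 612 CPM on chow and from 1003 to 2610 CPM on cdHFD in Hep-Bmal1WT and from 193 to 636 and 1396 to 2891 CPM in Hep-Bmal1KO, with 8 of 8 markers higher in each. The sum of 8 stellate cell markers ranged from 186 to 438 and 503 to 1049 CPM in Hep-Bmal1WT and from 165 to 403 and 503 to 1562 CPM in Hep-Bmal1KO, with 7 and 8 of 8 higher. Of 9 endothelial markers, 4 rose and 1 fell in Hep-Bmal1WT, and 5 rose and 2 fell in Hep-Bmal1KO. Of 6 lymphocyte markers, 4 rose in Hep-Bmal1WT (median sum 9.87 and 27.0 CPM), and 2 rose and 1 fell in Hep-Bmal1KO (10.1 and 27.6 CPM). Of 5 cholangiocyte markers, 2 rose in Hep-Bmal1WT (median sum 51.1 and 104 CPM) and 3 in Hep-Bmal1KO (89.8 and 225 CPM). No marker was at a median count of 0. The part of these cells in the rise of *Klf6*, *Klf4*, and *Klf2* and in the fall of *Klf15* was not tested, and in whole liver RNA fewer cells of a type and less RNA per cell cannot be told apart. In addition, each plate column named in the libraries holds a single genotype and diet, so plate column and group cannot be told apart. If the order of the libraries follows the plate, each plate column also holds only neighbouring ZTs of its group. In that case plate column and time of day cannot be fully told apart either. The part of plate column in the rhythm, amplitude, and peak time results was not tested.

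**Figure D5:**
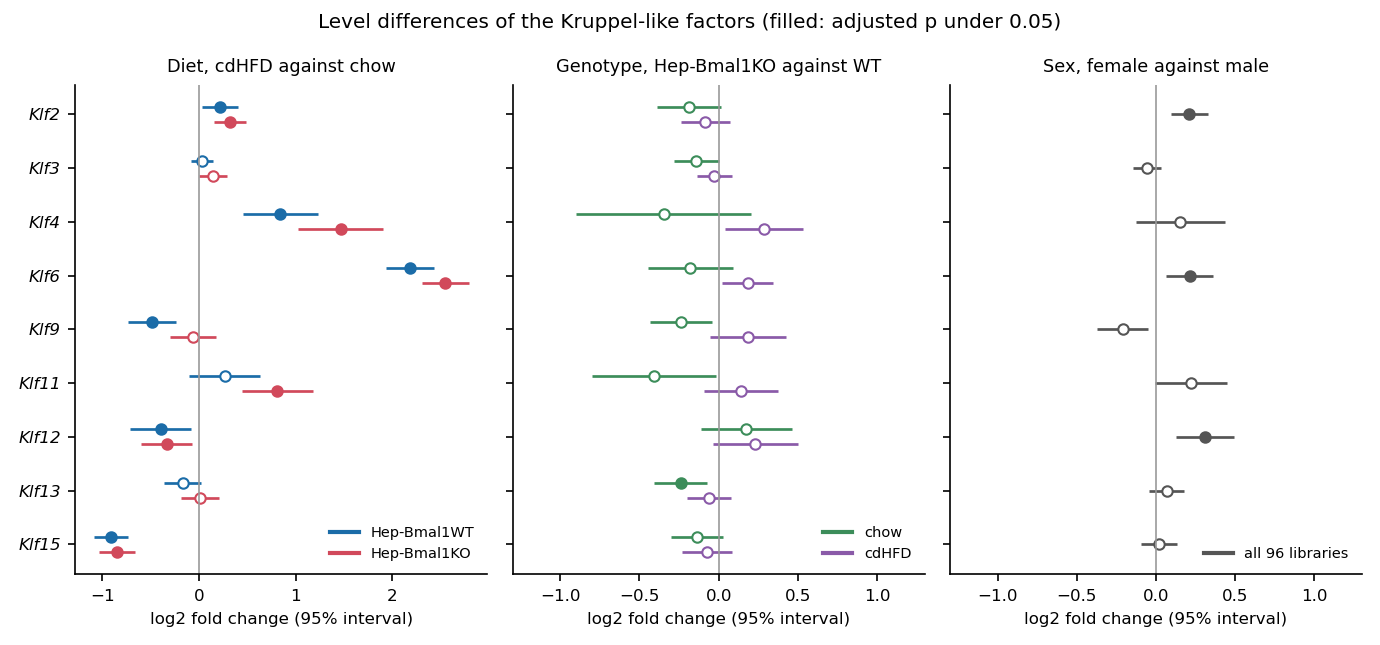
Log2 fold change with its 95% interval for the 9 genes, for cdHFD against chow in each genotype, Hep-Bmal1KO against Hep-Bmal1WT on each diet, and females against males over all 96 libraries, with filled points at an adjusted p under 0.05. *Klf6* stands at 2.19 and 2.55 and *Klf15* at -0.91 and -0.85 for diet, while the genotype differences lie between -0.41 and 0.29.

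The genotypes were also compared in their response to the diet. The interaction of genotype with diet was above 0 in 9 of 9 genes and passed the test in none (3.04% of all genes were called, 1.04% above 0 and 2% below). The median was 0.18 over the 9 genes and 0.012 over all genes tested. The share of all genes above 0 was not computed. The genotype estimates on chow use the same chow libraries, so the shared sign is not separate evidence. At an unadjusted p under 0.05 there were 4 of 9, beside 2561 of all 15548 genes. These were *Klf9* (0.43 ± 0.16, adjusted p = 0.136), *Klf11* (0.54 ± 0.23, adjusted p = 0.196), *Klf6* (0.36 ± 0.15, adjusted p = 0.203), and *Klf4* (0.63 ± 0.28, adjusted p = 0.227). The diet calls of *Klf9* in Hep-Bmal1WT and of *Klf11* in Hep-Bmal1KO are thus not shown to differ between genotypes. Without the discordant libraries *Klf6* passed, with 0.47 and an adjusted p of 0.0443. For *Klf15* the interaction was 0.06 ± 0.12 with a 95% interval from -0.17 to 0.29.

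The daily curve of *Klf13* differed between the diets in Hep-Bmal1WT (adjusted p = 0.00213), the 1 gene of the 9 that passed, where 6.13% of all genes passed. Its fitted peak moved from 12.5 h on chow to 7.14 ± 1.02 h on cdHFD, a difference of -5.34 ± 1.36 h, and its amplitude from 0.50 to 0.24 ± 0.07. The ZT6 livers had 23.1, 30.5, 38.5, and 41.8 CPM on chow and 34.4, 44.98, 46.9, and 50.7 CPM on cdHFD, with overlap. The ZT14 livers had 57.03 to 61.2 CPM on chow and 32.2, 35.2, 35.7, and 42.8 CPM on cdHFD, all below the chow values. How many of all genes were without overlap between the diets at that ZT was not computed. The call was kept without the discordant libraries (adjusted p = 0.00230) and lost on leaving out mouse 3 or mouse 4 of every cell (0.0559 and 0.0741). In the same groups the mean of *Bmal1* (*Arntl*) was lowest at ZT10 on chow (0.748 CPM) and at ZT6 on cdHFD (0.916 CPM). Its highest mean stood at ZT2 on chow (20.2 CPM) and at ZT22 on cdHFD (21.2 CPM). Whether the curves of *Klf13* and *Arntl* moved together was not tested.

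*Klf15*, *Klf6*, and *Klf11* stood just short of that threshold, at adjusted p of 0.0633, 0.0642, and 0.0698. The fitted peak of *Klf15* was 11.6 h on chow and 7.64 ± 1.32 h on cdHFD in Hep-Bmal1WT (difference -3.99 ± 1.33 h), where *Klf15* did not pass the rhythm test on cdHFD (adjusted p = 0.104). With DESeq2's likelihood ratio test all 3 genes passed beside *Klf13* (0.0392, 0.0348, and 0.0375), and with sex as a covariate *Klf15* and *Klf6* did (0.0459 and 0.0228). In Hep-Bmal1KO none of the 9 genes passed (0.907% of all genes did), with 3 at an unadjusted p under 0.05, among them *Klf13* (unadjusted p = 0.00559, adjusted p = 0.147). No gene of the 9 was rhythmic in both genotypes on cdHFD, so peak times were not compared there (5.91% of the genes compared were called). The amplitude of *Klf13* in Hep-Bmal1KO was 0.44 on chow and 0.11 ± 0.06 on cdHFD.

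Both sexes were in every cell, so sex could be tested over all 96 libraries, 49 male and 47 female. *Klf2*, *Klf6*, and *Klf12* were higher in females, 3 of the 9 genes, where 9% of all genes were higher and 8.24% lower. *Klf2* had a lowest value, median, and highest value of 9.50, 21.8, and 38.5 CPM in females and 11.5, 18.03, and 27.4 CPM in males (log2 fold change 0.21 ± 0.06, adjusted p = 0.00655), with a higher female mean in 4 of 4 groups. *Klf12* had 2.51, 5.54, and 13.1 CPM in females and 1.41, 4.28, and 8.38 CPM in males (0.31 ± 0.09, adjusted p = 0.0106), also with a higher female mean in 4 of 4 groups. *Klf6* had 0.21 ± 0.07 (adjusted p = 0.0328) and a higher female mean in 3 of 4 groups, with 52.4 ± 11.5 CPM in males and 45.01 ± 8.78 CPM in females (SD, n = 12 each) in Hep-Bmal1KO on cdHFD. The sexes overlapped for all 3 genes, and all 3 passed without the library whose sex-linked genes went against its label (adjusted p = 0.0101, 0.0185, and 0.0103 for *Klf2*, *Klf6*, and *Klf12*).

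The *Klf6* call was lost without the discordant libraries (adjusted p = 0.127) and on leaving out any mouse number, the *Klf2* call on leaving out mouse 2 or 4, and the *Klf12* call on leaving out mouse 1 or 3. *Klf9* had a log2 fold change of -0.21 ± 0.08 (adjusted p = 0.0550), lower in females in 3 of 4 groups by the mean, and passed without the discordant libraries (-0.31, adjusted p = 0.00191). At ZT6 in Hep-Bmal1WT on chow, *Klf6* was 19.6 and 27.97 CPM in the females and 6.44 and 10.5 CPM in the males. *Klf11* split in the same way at ZT6 on chow in both genotypes. Whether the sexes differ by ZT was not tested. Of the markers, 6 of 9 for endothelial cells, 3 of 8 for stellate cells, 3 of 6 for lymphocytes, and 3 of 8 for macrophages were also higher in females. Of 8 hepatocyte markers, 3 were higher and 1 was lower in females, and 0 of 5 cholangiocyte markers were called. The part of these cells in the sex differences was not tested.

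Relatives and partners of the KLFs were measured in the same libraries. These and the following lists were chosen with earlier results of these data known. For their counts on cdHFD, 28.4% of all genes rose and 27.3% fell in Hep-Bmal1WT, and 32.4% and 29.6% in Hep-Bmal1KO. Between genotypes 12.5% of all genes were called on chow and 9.67% on cdHFD. Of 17 other KLF and SP genes, 10 were expressed above the filter. On cdHFD, 3 rose and 2 fell in Hep-Bmal1WT, and 5 rose and 2 fell in Hep-Bmal1KO, with the smallest p for *Sp2* (log2 fold change 0.68 and 0.93) and *Klf1*, the erythroid KLF (-0.90 and -1.38). *Klf10*, a further SIN3-binding KLF, was lower in Hep-Bmal1KO on chow (-0.70 ± 0.23, adjusted p = 0.0369), the 1 call among these relatives between genotypes. In Hep-Bmal1WT on chow 3 of the 10 relatives were rhythmic (18.7% of all genes), and 0 in each of the other 3 groups.

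Of the 9 corepressors and partners, 2 rose and 3 fell on cdHFD in Hep-Bmal1WT, and 2 rose and 2 fell in Hep-Bmal1KO. *Ctbp2*, the corepressor of KLF3 and KLF12, rose with log2 fold changes of 0.96 in Hep-Bmal1WT and 1.60 in Hep-Bmal1KO. *Ctbp1* rose by 0.26 in both genotypes, *Sin3b* fell by 0.20 and 0.15, and *Kat2b* fell by 0.27 and 0.18. None of the 9 differed between genotypes on either diet, and the interaction of genotype with diet passed for *Hdac1* (0.30, adjusted p = 0.0481).

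The liver genes known to respond to KLF15, which encode enzymes of amino acid use and glucose output, were lower on cdHFD in 8 of 9 cases in Hep-Bmal1WT and in 9 of 9 in Hep-Bmal1KO, with median log2 fold changes of -1.14 and -1.17. Examples were *Otc* (-1.45 and -1.67) and *Asl* (-1.51 and -1.26) of the urea cycle, *Sds* (-1.56 and -1.24), which breaks down serine, and *Got1* (-1.39 and -1.53), an aminotransferase. *Klf15* itself stood at -0.91 and -0.85 in the same libraries. Between genotypes on chow, 3 of these genes were higher in Hep-Bmal1KO (*Got1* 0.75, *G6pc* 0.62, and *Gpt* 0.26) and 1 was lower (*Asl* -0.55). On cdHFD 2 were higher and 2 lower in Hep-Bmal1KO, and 1 had an interaction of genotype with diet below 0. In Hep-Bmal1WT on chow 6 of 9 were rhythmic, against 1 in Hep-Bmal1KO on chow, 4 in Hep-Bmal1WT on cdHFD, and 3 in Hep-Bmal1KO on cdHFD. Of all genes, 18.7%, 4.34%, 14.3%, and 3.81% were rhythmic in these groups. Of the 8 hepatocyte markers, 7 fell and 1 rose on cdHFD in each genotype, with the summed levels given above. The part of hepatocyte content in this list was not tested.

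Of the 8 glucocorticoid-induced genes, 3 rose and 2 fell on cdHFD in Hep-Bmal1WT and 6 rose and 2 fell in Hep-Bmal1KO. The metallothionein genes *Mt2* (1.48 and 2.16) and *Mt1* (0.85 and 1.60) rose in both, and *Tsc22d3* (-0.61 and -0.83) and *Tat* (-1.14 and -0.79) fell in both, so the list had no single direction. Between genotypes, 1 gene of this list was higher and 1 lower in Hep-Bmal1KO on chow, and 1 was higher on cdHFD. The interaction of genotype with diet was above 0 for 1 called gene. Of 12 immediate early genes, the class that *Klf4* and *Klf6* are often counted with, 9 rose and 1 fell in Hep-Bmal1WT and 9 rose in Hep-Bmal1KO. *Atf3* had the largest of the named changes (3.90 and 4.23), followed by *Fos* (2.45 and 2.79), *Jun* (1.69 and 2.10), and *Btg2* (1.66 and 2.01). Between genotypes, 1 of the 12 immediate early genes was lower in Hep-Bmal1KO on chow and 0 were called on cdHFD. Of the 4 expressed genes that KLF2 and KLF4 are known to control in endothelium, *Vcam1* (2.67 and 2.96) and *Thbd* (1.28 and 1.54) rose in both genotypes, *S1pr1* fell in both (-0.83 and -1.16), and *Nos3* fell in Hep-Bmal1WT (-0.67).

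The 9 genes differed in which other genes had a similar profile, measured as Pearson's r over the 24 cell means of log2 CPM and given as a description over all genes with a mean of at least 5 CPM. *Klf6* went with *Wfdc3*, *Myof*, and *S100a11* (r = 0.98 each), and *Klf4* with *Rhob* (0.95), *Pdlim7* (0.94), and *Hmox1* (0.93). *Klf15* went with *Auh* (0.96), *Inmt* (0.94), and *Etnk2* (0.93). All 3 genes had large diet differences, and the 24 points share the libraries of both diets. *Klf13* went with *Noct* (0.86), *Rad54l2* (0.84), and *Usp2* (0.82), of which *Noct* and *Usp2* are known as genes of the daily cycle. The nearest gene was *Cab39* for *Klf3* (0.87), *Ctdsp2* for *Klf11* (0.88), *Inhbe* for *Klf2* (0.84), *Tle1* for *Klf9* (0.84), and *Tab2* for *Klf12* (0.75). Among the 9 genes themselves, the highest r was that of *Klf4* with *Klf6* (0.84), then *Klf6* with *Klf11* (0.69) and *Klf2* with *Klf4* (0.67).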

How the data were processed

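RNA from 96 mouse livers was sequenced by BRB-seq, which reads the 3′ portion of each mRNA. The authors used STAR and mm10 for alignment, and the deposited values are raw counts for each gene. HTSeq and featureCounts are both named for the counting, strand use is not given in the sources used here, and whether the deposited counts are reads or molecules is not given in the sources used here either, so error from depth covers counting only. Entries that name no gene (19.4% of all entries not aligned and 8.06% without a feature) were left out of library sizes and tests.

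Groups, ZT, and sex were taken from the labels. The 9 genes, the gene lists, and the tests were chosen with earlier results of these data known. Software was DESeq2 1.42.0 and edgeR 4.0.16 under R 4.3.3. Level, rhythm, and interaction tests were edgeR quasi-likelihood tests on the counts with TMM normalization and Benjamini-Hochberg adjustment over 15548 genes, called at an adjusted p under 0.05. Level tests carried ZT as a factor, and the test of sex carried the 24 cells of genotype, diet, and ZT. Amplitude, peak time, and mesor were fitted by least squares after the CircaCompare model on DESeq2's variance-stabilized values with delta-method standard errors. Standard errors and 95% intervals of log2 fold changes come from the edgeR F statistic. Each mouse is 1 library, so the spread is between mice.

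Named were all 9 genes, of each related list the called genes of smallest p (at most 4 per comparison), and for each gene the 3 genes of most similar profile with a mean of at least 5 CPM. Alternatives were DESeq2's tests and size factors, other filters, sex as a covariate, JTK_CYCLE and cosinor tests, log2 CPM with a prior count of 2, each mouse number left out of every cell in turn, and the discordant libraries left out. The test of sex without the library whose sex-linked genes went against its label was added after the data were seen. The statistical scripts were tested on simulated data. Gene positions are from RefSeq on GRCm38.p6.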

Additional observations from a re-analysis of the deposited data

Results flagged for a closer look

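Of the 216 sets of 4 livers (9 genes in 24 cells), 10 held a library set apart from the other 3 by Dixon's test at the 95% level, and chance flags about 1 in 20 such sets. All values are in CPM. *Klf2* and *Klf15* were flagged in the same library, mouse 4 of Hep-Bmal1KO on chow at ZT6, a discordant library, with 20.7 against 12.9 to 14.1 and 188 against 127 to 135. *Klf4* in mouse 4 of Hep-Bmal1WT on chow at ZT18, also a discordant library, had 4.44 against 1.34 to 1.60.

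The other 7 flags fell on libraries that were not discordant. *Klf2* in mouse 2 of Hep-Bmal1WT on cdHFD at ZT18 was low, with 16.9 against 22.6 to 23.6. *Klf3* was low in mouse 2 of Hep-Bmal1KO on chow at ZT14 (14.8 against 25.7 to 27.7) and in mouse 1 of Hep-Bmal1WT on cdHFD at ZT22 (23.8 against 30.1 to 31.0), and high in mouse 2 of Hep-Bmal1WT on chow at ZT22 (27.3 against 22.5 to 23.2). *Klf6* in mouse 4 of Hep-Bmal1KO on cdHFD at ZT18 had 36.4 against 62.4 to 65.5, and this low value still lay above every *Klf6* value on chow. *Klf11* in mouse 4 of Hep-Bmal1KO on chow at ZT18 had 9.41 against 3.57 to 3.94, and *Klf12* in mouse 4 of Hep-Bmal1WT on chow at ZT22 had 6.76 against 3.99 to 4.09.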

How the results depend on the processing

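The mice carry numbers only in the order of their libraries within a cell. In that order mice 1 and 2 were male and mice 3 and 4 female, except on cdHFD at ZT2 and in Hep-Bmal1WT on cdHFD at ZT14. Leaving out a mouse number therefore also changed the balance of the sexes. A call lost in this way cannot be assigned to single mice or to sex. No paired analysis was possible because the labels give no replicate numbers that groups share. All counts below are of the 9 genes unless stated, and the cause of a change was not tested. With each mouse number left out of every cell in turn, the number of rhythmic genes was 2 to 5 in Hep-Bmal1WT on chow, 0 to 1 in Hep-Bmal1KO on chow, and 0 to 1 in Hep-Bmal1WT on cdHFD. The number of genes called ranged from 0 to 1 for genotype on chow, 0 to 1 for genotype on cdHFD, 0 to 1 for the diet curve in Hep-Bmal1WT, 1 to 2 for sex, 4 to 5 for diet in Hep-Bmal1WT, and 5 to 6 for diet in Hep-Bmal1KO. JTK_CYCLE called 3 rhythmic genes in Hep-Bmal1WT on chow, *Klf15*, *Klf3*, and *Klf13*, which had the smallest p in that test. It called 0 in Hep-Bmal1KO on chow and in Hep-Bmal1WT on cdHFD, and the cosinor test called 0 in Hep-Bmal1KO on chow. With no filter beyond 1 count, 2 genes were rhythmic in Hep-Bmal1WT on cdHFD, 0 were called for genotype on chow, and 5 for sex. With sex as a covariate, 2 genes were rhythmic in Hep-Bmal1WT on cdHFD, 3 were called for the diet curve in Hep-Bmal1WT, and 1 pair of gene and ZT was called for genotype on chow. DESeq2's likelihood ratio test called 4 genes for that diet curve. Without the discordant libraries, 2 genes were called for genotype on chow, 2 for the diet curve in Hep-Bmal1WT, 1 for genotype with diet, 1 pair for genotype at single ZTs on chow, and 2 for the mesor (the fitted mean level) on chow, where 0 were called with all libraries. At an unadjusted p under 0.05, 2 genes were called for the mesor on chow and 2 on cdHFD.

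Signs turned in 3 log2 fold changes near 0 that no setting called. *Klf9* for diet in Hep-Bmal1KO was -0.06 with all libraries, 0.017 without the discordant ones, and -0.15 to -0.0022 with a mouse number left out. *Klf13* for diet in Hep-Bmal1KO ranged from -0.069 to 0.079, and *Klf12* for genotype with diet from -0.097 to 0.12, with a mouse number left out. Of the other log2 fold changes under an alternative, 495 kept their sign and side of the threshold, 29 lost a call, and 13 gained one. Counting error, relative to the level, is largest for *Klf11*, *Klf12*, and *Klf4*, which had the fewest counts.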
